A study of Sus scrofa with 9 samples.

Results

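Chemokines are small secreted proteins that direct the movement of leukocytes, and chemokine receptors are the surface proteins that leukocytes use to sense them. The genes described here are the 40 named by their array annotation as chemokine ligands or receptors, out of 12362 genes with a single symbol on the array. Membership was set by symbol, namely CCL, CXCL, CX3CL, XCL, CCR, CXCR, CX3CR, XCR or ACKR followed by a digit. The choice of these genes was made with earlier results of these data known. The 40 genes comprise 27 ligands and 13 receptors, and each was read from its probe set of highest mean over all 9 arrays. Of these, 18 are CC ligands, 8 CXC ligands and 1 the C ligand XCL1. The receptors comprise 3 of the CC type, 5 of the CXC type, the C receptor XCR1 and 4 atypical receptors. A further 12 family members that were looked for had no single-symbol probe set and were not analysed here, among them CCR1, CCR2, CXCR1, CX3CL1 and CX3CR1. The receptors for several of the ligands below are therefore missing from the description.

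The samples were biopsies from 9 male Yorkshire pigs, 1 Affymetrix array per animal. Kidneys of the NEVKP group (n = 3) were perfused for 8 h outside the body near body temperature, a procedure called normothermic ex vivo kidney perfusion. Kidneys of the SCS group (n = 3) lay for 8 h in static cold storage without flow. Kidneys of the No Storage group (n = 3) were returned at once. All groups, No Storage included, shared 30 min of warm ischemia of the right kidney, flushing, reimplantation into the same animal and removal of the left kidney, with a biopsy on post-operative day 3. No Storage is thus an injured and transplanted kidney, not an untouched one.

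A chemokine binds a receptor coupled to a G protein on a leukocyte, which then adheres to the vessel wall and moves toward the source. CC ligands such as CCL2 mainly attract monocytes and lymphocytes. Several CXC ligands, such as CXCL8 and CXCL2, attract neutrophils, whereas CXCL9, CXCL10 and CXCL11 are induced by interferons and attract activated T and NK cells. Atypical receptors bind chemokines without moving the cell and mostly clear or transport them. In an injured kidney, tubule cells, endothelium, fibroblasts and leukocytes can all make chemokines. The roles given below are those known from human and mouse.

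Each probe set has 1 deposited value per array on the log2 scale, so a difference of 1 is a doubling of signal, and levels of different probe sets were not set against each other. Array medians lay between 5.70 and 5.80, and arrays correlated with each other at 0.974 to 0.991 across 19124 probe sets. Of the 12 kidney tubule markers looked for, 8 were measured and 0 of them were dim, meaning in the lowest 25% of probe sets by mean, under a log2 value of 3.92. Among the 40 genes, 4 were dim: the ligand gene CCL1 and the receptor genes ACKR4, CXCR5 and CXCR6. Differences were tested with limma over all probe sets with Benjamini-Hochberg adjustment. None of the 40 genes passed an adjusted p of 0.05 in any comparison with all 9 arrays, so differences below are measured values and not called changes. A biopsy mixes cell types, so more cells of a type and more RNA per cell cannot be told apart.

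Ligands as a group lay higher in NEVKP kidneys, whereas receptors stayed near their No Storage levels in all groups. Averaged over the 27 ligands, the log2 value exceeded the mean of No Storage by 0.20, 0.76 and 0.74 in NEVKP replicates 1, 2 and 3. This average was 0.19, 0.09 and 0.02 in SCS replicates 1, 2 and 3, and 0.08, -0.13 and 0.05 in No Storage replicates 1, 2 and 3. NEVKP replicates 2 and 3 stood clear of every other array, while NEVKP replicate 1 lay beside SCS replicate 1. Group means were 0.56 ± 0.32 in NEVKP and 0.10 ± 0.08 in SCS, against a No Storage spread of 0.12 around 0 (SD, n = 3 each). The mean over the 13 receptors was 0.06 ± 0.14 in NEVKP, 0.14 ± 0.08 in SCS and spread by 0.16 around 0 in No Storage (SD, n = 3 each). The receptor arrays of all groups overlapped, from -0.02 to 0.22 in NEVKP, 0.06 to 0.22 in SCS and -0.18 to 0.10 in No Storage.

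**Figure D1:**
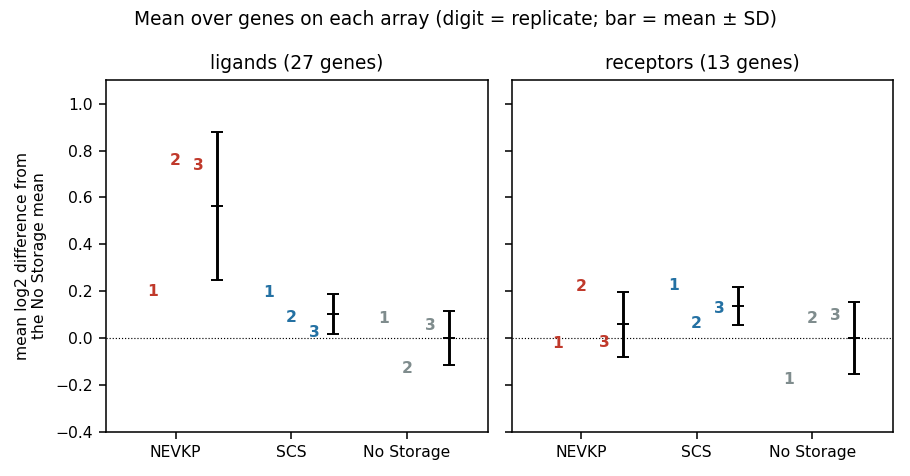
Mean log2 difference from the No Storage mean over 27 ligand genes (left) and 13 receptor genes (right) on each array, with replicate numbers as digits and bars for the group mean ± SD (n = 3). NEVKP replicates 2 and 3 lie at 0.76 and 0.74 for ligands, above all SCS and No Storage arrays, while receptor values of the groups overlap.

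The 2 NEVKP animals with high ligand signal did not share one profile. Of the 27 ligands, 10 had their highest value of all 9 arrays in NEVKP replicate 2 and 7 in NEVKP replicate 3, but 0 in NEVKP replicate 1. Over all genes, these arrays held the highest value for 17%, 8.45% and 5.47%. Replicate 2 led for CCL2, CCL8, CXCL8, CXCL2 and CXCL14, and replicate 3 led for CXCL9, CXCL10, CXCL11, CCL11 and CCL19. The median SD within the NEVKP group was 0.59 for ligands, 0.23 for receptors and 0.18 for all genes. Ligands also spread more than all genes in the other groups, with 0.32 beside 0.19 in SCS and 0.25 beside 0.14 in No Storage. In NEVKP, 8 of 27 ligands had an SD above 1, as had 0.963% of all genes. In SCS and in No Storage 0 of 27 ligands did, beside 0.34% and 0.243% of all genes. The heat map of all 40 genes shows these array-specific values.

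**Figure D2:**
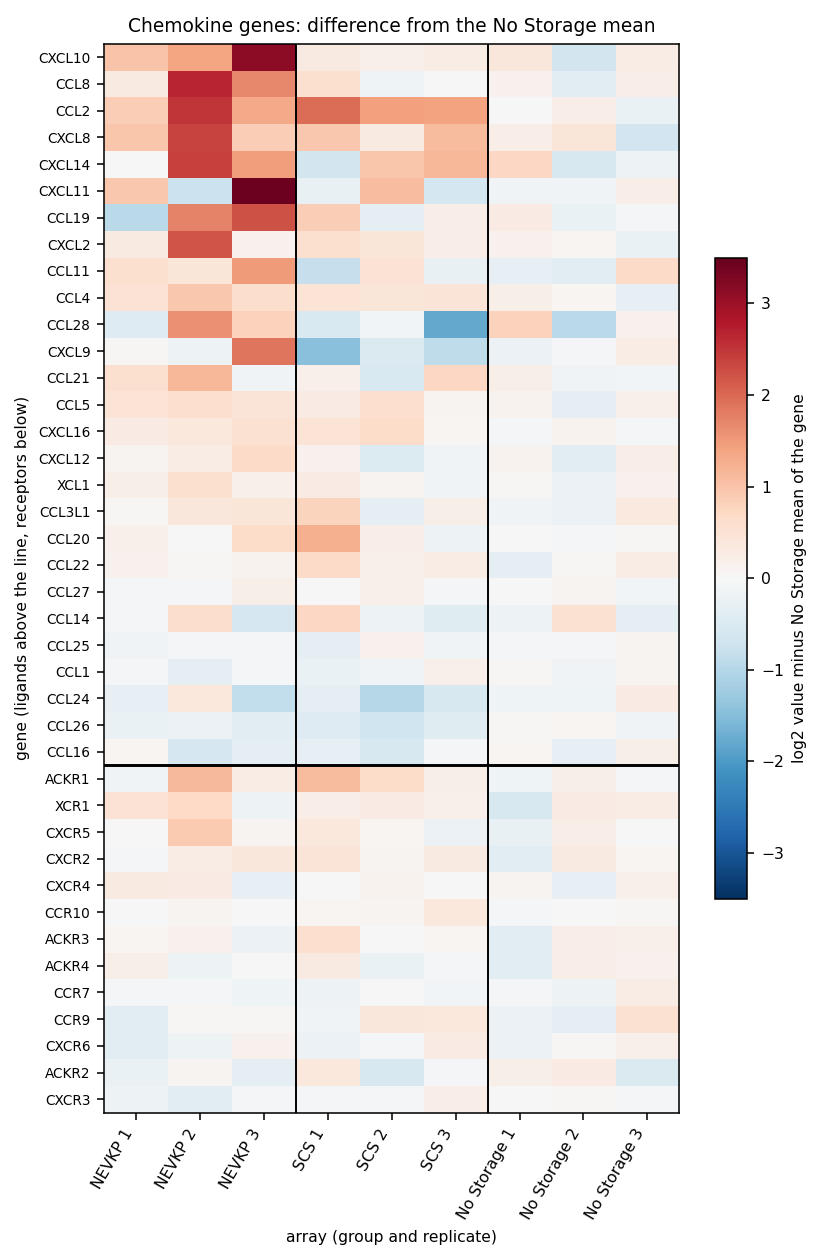
Log2 value minus the No Storage mean of each gene (colour) for 27 ligands above the line and 13 receptors below it, with genes in rows and the 9 arrays in columns. The strongest colours stand in NEVKP replicates 2 and 3, where CXCL11 reached 3.42 and CXCL10 3.12 above the No Storage mean in replicate 3.

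CCL2, the main attractant of monocytes, lay higher in both preserved groups than in No Storage. Its log2 values were 8.82, 10.45 and 9.28 in NEVKP kidneys, 9.92, 9.39 and 9.36 in SCS kidneys, and 7.99, 8.18 and 7.72 in No Storage kidneys. Every preserved kidney lay above every No Storage kidney, and the preserved groups overlapped each other. The difference was 1.59 (SE 0.35) for SCS against No Storage, a 3.01-fold higher signal (limma adjusted p = 0.0883). For NEVKP against No Storage it was 1.55 (SE 0.35), a 2.93-fold higher signal (limma adjusted p = 0.342). Between NEVKP and SCS it was -0.04, with a 95% interval from -0.82 to 0.74, which leaves room for a difference either way. CCL2 passed for SCS against No Storage in 2 of 17 alternatives, without NEVKP replicate 2 (limma adjusted p = 0.0317) and with SCS and No Storage fitted alone (limma adjusted p = 0.0427). Over all 17 its adjusted p ran from 0.0317 to 0.284.

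CCL8 and CCL11 are neighbours of CCL2 in the RefSeq gene order, but their pattern across groups differed from that of CCL2. CCL8, a monocyte and lymphocyte attractant, measured 5.58, 7.93 and 6.95 in NEVKP kidneys, 5.83, 5.11 and 5.27 in SCS kidneys, and 5.40, 4.89 and 5.49 in No Storage kidneys. All NEVKP arrays exceeded the No Storage arrays, although replicate 1 did so narrowly and lay below SCS replicate 1. The difference was 1.56 (SE 0.48) for NEVKP against No Storage (limma adjusted p = 0.432) and 1.42 for NEVKP against SCS (limma adjusted p = 0.599). Without NEVKP replicate 2 these were 1.01 and 0.86. For SCS against No Storage CCL8 differed by 0.15, beside 1.59 for CCL2. CCL11, the eosinophil attractant eotaxin, measured 5.25, 5.11 and 6.19 in NEVKP kidneys, 3.87, 5.18 and 4.43 in SCS kidneys, and 4.39, 4.31 and 5.37 in No Storage kidneys. These groups overlapped, and the difference between NEVKP and SCS was 1.02 (SE 0.40, limma adjusted p = 0.648).

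CCL4 and CCL5, which attract T cells and monocytes, showed smaller differences. Spread was little for CCL4 in SCS (SD 0.02) and CCL5 in NEVKP (SD 0.07). It was wider for CCL4 in NEVKP (SD 0.23) and CCL5 in SCS (SD 0.25, n = 3 each). CCL4 measured 4.98, 5.41 and 5.10 in NEVKP kidneys, 4.96, 4.91 and 4.93 in SCS kidneys, and 4.68, 4.54 and 4.20 in No Storage kidneys. The groups did not overlap, and they stood in the order NEVKP, SCS and No Storage. NEVKP cleared SCS narrowly, at 4.98 beside 4.96. The difference between these groups was 0.23, with a 95% interval from -0.13 to 0.58 (limma adjusted p = 0.755). Its difference from No Storage was 0.69 (SE 0.16) in NEVKP (limma adjusted p = 0.354) and 0.46 (SE 0.16) in SCS (limma adjusted p = 0.205). CCL5 measured 6.25, 6.35 and 6.21 in NEVKP kidneys, 6.05, 6.36 and 5.85 in SCS kidneys, and 5.89, 5.44 and 5.95 in No Storage kidneys. NEVKP lay above No Storage on every array, by 0.51 (SE 0.17, limma adjusted p = 0.448), and SCS overlapped both. CCL3L1, the neighbour of CCL4, is a related ligand, and its values overlapped in all groups with differences of 0.28 for NEVKP and 0.21 for SCS against No Storage. Probe sets of close relatives such as CCL3L1 and CCL4 may share signal.

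CXCL9, CXCL10 and CXCL11, which are induced by interferons and bind CXCR3, were led by 1 NEVKP animal. CXCL10 measured 7.86, 8.24 and 9.99 in NEVKP kidneys, 7.19, 7.04 and 7.12 in SCS kidneys, and 7.27, 6.22 and 7.11 in No Storage kidneys. It was the ligand of this trio for which all NEVKP arrays lay above all arrays of the other groups. The difference was 1.83 (SE 0.47), a 3.56-fold higher signal, against No Storage (limma adjusted p = 0.395) and 1.58, or 3.00-fold, against SCS (limma adjusted p = 0.574). Without NEVKP replicate 3 these were 1.19 and 0.94. CXCL11 measured 7.06, 5.36 and 9.55 in NEVKP kidneys, 5.87, 7.20 and 5.51 in SCS kidneys, and 6.01, 6.02 and 6.36 in No Storage kidneys. NEVKP held both the highest and the lowest CXCL11 array, and its difference from No Storage of 1.20 (SE 0.84, limma adjusted p = 0.703) was 0.08 without replicate 3 and 2.18 without replicate 2.

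CXCL9 was the trio member with lower values in cold-stored kidneys. It measured 6.42, 6.21 and 8.27 in NEVKP kidneys, 4.93, 5.89 and 5.49 in SCS kidneys, and 6.18, 6.34 and 6.64 in No Storage kidneys. Every SCS array lay below every array of the other groups. The difference was -0.95 (SE 0.47) for SCS against No Storage (limma adjusted p = 0.363) and 1.53 (SE 0.47) for NEVKP against SCS (limma adjusted p = 0.587), or 0.88 without NEVKP replicate 3. Against No Storage NEVKP differed by 0.58, a sign that depended on replicate 3, without which the difference was -0.08. CXCR3, the receptor of the trio on activated T and NK cells, measured 5.84, 5.62 and 5.96 in NEVKP kidneys, 5.95, 5.97 and 6.25 in SCS kidneys, and 6.0, 6.05 and 5.98 in No Storage kidneys. NEVKP arrays lay below No Storage arrays by a small margin, -0.20 with a 95% interval from -0.50 to 0.10 (limma adjusted p = 0.679), and by -0.11 without NEVKP replicate 2.

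The neutrophil attractants CXCL8 and CXCL2 peaked together in NEVKP replicate 2. CXCL8 measured 4.95, 6.35 and 4.86 in NEVKP kidneys, 4.94, 4.32 and 5.09 in SCS kidneys, and 4.22, 4.42 and 3.33 in No Storage kidneys. NEVKP exceeded No Storage on every array by 1.39 (SE 0.41, limma adjusted p = 0.412), or by 0.92 without replicate 2, and SCS lay between them with overlap. CXCL2 measured 6.71, 8.60 and 6.56 in NEVKP kidneys, 6.96, 6.81 and 6.64 in SCS kidneys, and 6.56, 6.46 and 6.17 in No Storage kidneys. Its NEVKP difference from No Storage, 0.89 (SE 0.43, limma adjusted p = 0.574), was 0.24 without replicate 2, while the smaller SCS difference of 0.41 came with arrays that did not overlap No Storage (limma adjusted p = 0.718). The array carries 4 CXCL2 probe sets under 2 gene identifiers, and 2 of them held identical values. All peaked in NEVKP replicate 2, where the others read 7.11 and 7.71. In these others SCS arrays overlapped No Storage arrays, with differences of 0.26 and 0.45. Their NEVKP differences from No Storage were 0.45 and 1.39. CXCR2, the receptor of CXCL8 and CXCL2 on neutrophils, measured 4.21, 4.50 and 4.66 in NEVKP kidneys, 4.69, 4.36 and 4.56 in SCS kidneys, and 3.88, 4.56 and 4.32 in No Storage kidneys. These overlapped, with differences of 0.20 for NEVKP and 0.29 for SCS against No Storage.

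**Figure D3:**
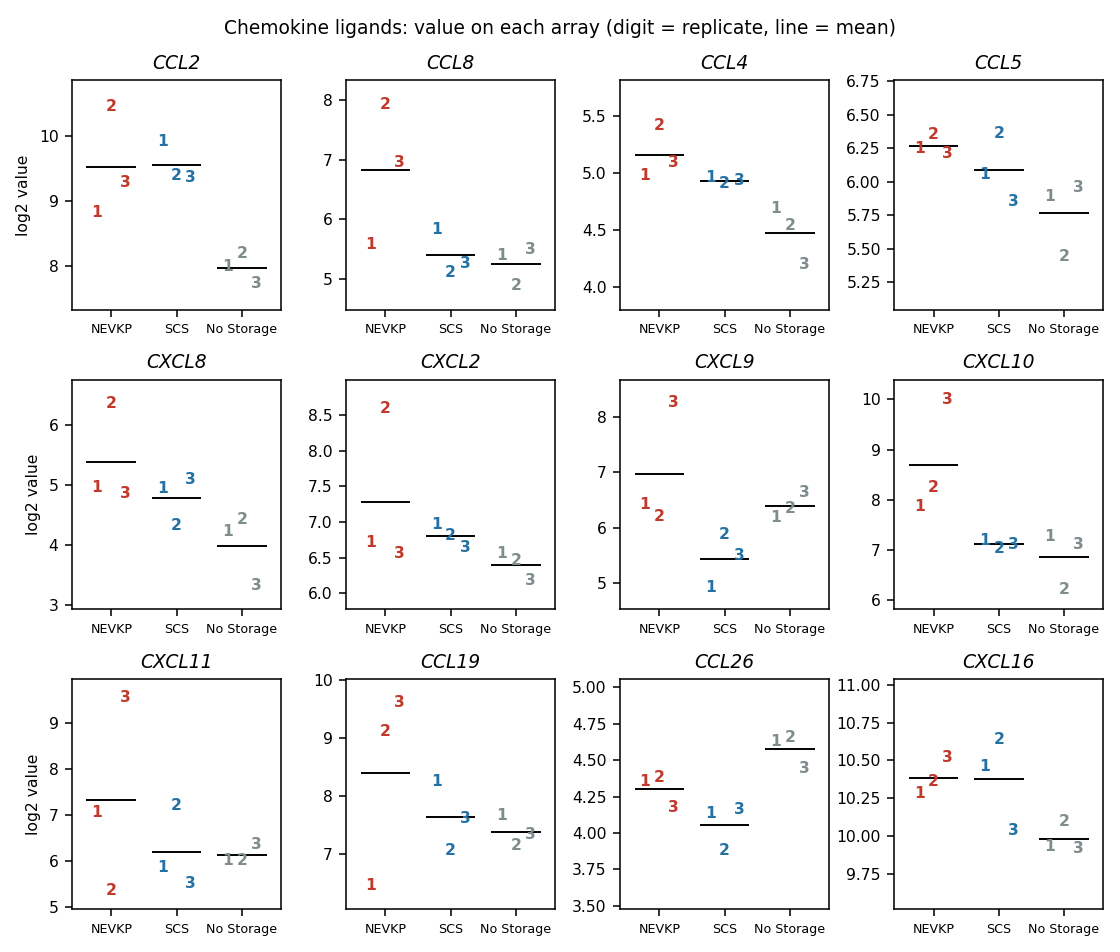
Log2 value of 12 chemokine ligands on each array, with the replicate number as a digit and the group mean as a line, and a separate vertical scale for each gene. CCL2 and CCL4 lie above all No Storage arrays in every preserved kidney, replicate 2 leads CXCL8, CXCL2 and CCL8 among NEVKP arrays, and replicate 3 leads CXCL9, CXCL10 and CXCL11.

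Ligands that guide lymphocytes and dendritic cells under resting conditions varied among animals more than between groups. CCL19, a ligand of CCR7, measured 6.46, 9.13 and 9.61 in NEVKP kidneys, 8.26, 7.06 and 7.62 in SCS kidneys, and 7.67, 7.15 and 7.35 in No Storage kidneys. NEVKP replicates 2 and 3 were the highest arrays and replicate 1 the lowest of all 9, so that the difference from No Storage of 1.01 had an SE of 0.67 (limma adjusted p = 0.679). It was 1.98 without replicate 1, 0.65 without replicate 2 and 0.40 without replicate 3. CCL21, the other CCR7 ligand and the neighbour of CCL19, measured 8.46, 9.05 and 7.77 in NEVKP kidneys, 8.08, 7.37 and 8.61 in SCS kidneys, and 8.09, 7.78 and 7.80 in No Storage kidneys. Its NEVKP profile was unlike that of CCL19, with replicate 3 the lowest of the group. CCR7 itself measured 5.21, 5.22 and 5.12 in NEVKP kidneys, 5.10, 5.26 and 5.19 in SCS kidneys, and 5.21, 5.09 and 5.52 in No Storage kidneys. Its differences from No Storage were -0.09 in NEVKP and -0.09 in SCS, each with a 95% interval from -0.39 to 0.21.

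CXCL12, which retains stem cells and lymphocytes in tissue through CXCR4, measured 9.12, 9.29 and 9.71 in NEVKP kidneys, 9.19, 8.55 and 8.90 in SCS kidneys, and 9.16, 8.68 and 9.27 in No Storage kidneys. The groups overlapped, with a difference of 0.50 (SE 0.22) between NEVKP and SCS (limma adjusted p = 0.665), or 0.33 without NEVKP replicate 3 and likewise 0.33 without SCS replicate 2. CXCR4 measured 5.71, 5.68 and 5.11 in NEVKP kidneys, 5.37, 5.51 and 5.38 in SCS kidneys, and 5.47, 5.11 and 5.57 in No Storage kidneys. ACKR3, which removes CXCL12, measured 9.10, 9.19 and 8.85 in NEVKP kidneys, 9.63, 9.02 and 9.10 in SCS kidneys, and 8.64, 9.28 and 9.20 in No Storage kidneys. Neither receptor separated the groups, and the 95% intervals for NEVKP against No Storage ran from -0.30 to 0.52 for CXCR4 and from -0.47 to 0.48 for ACKR3.

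CXCL16, a membrane-bound ligand of CXCR6, differed from No Storage by almost the same amount in both preserved groups. It measured 10.28, 10.36 and 10.52 in NEVKP kidneys, 10.46, 10.64 and 10.04 in SCS kidneys, and 9.93, 10.09 and 9.92 in No Storage kidneys. The difference from No Storage was 0.41 (SE 0.16) in NEVKP (limma adjusted p = 0.515) and 0.40 (SE 0.16) in SCS (limma adjusted p = 0.277), and 1 SCS array lay within the No Storage range. CXCR6 was dim, at 3.14, 3.32 and 3.65 in NEVKP kidneys, 3.29, 3.46 and 3.77 in SCS kidneys, and 3.29, 3.53 and 3.68 in No Storage kidneys. Its groups overlapped. CXCL14, an epithelial chemokine, had means of 7.67 ± 1.22 in NEVKP, 6.89 ± 0.98 in SCS and 6.39 ± 0.66 in No Storage (SD, n = 3 each). CXCR5, the receptor that leads B cells to follicles, was dim, between 2.44 and 3.60 on all arrays.

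The eosinophil attractants CCL24 and CCL26, which are direct neighbours, lay lower in cold-stored kidneys. CCL26 measured 4.35, 4.38 and 4.18 in NEVKP kidneys, 4.13, 3.88 and 4.16 in SCS kidneys, and 4.63, 4.65 and 4.45 in No Storage kidneys. The groups did not overlap, with SCS the lowest, at -0.52 (SE 0.13) against No Storage (limma adjusted p = 0.109), and NEVKP at -0.27 (SE 0.13, limma adjusted p = 0.567). The gap between NEVKP and SCS was narrow, at 4.18 beside 4.16, and their difference of 0.25 had a 95% interval from -0.04 to 0.54. CCL24 measured 6.42, 7.09 and 5.85 in NEVKP kidneys, 6.38, 5.71 and 6.16 in SCS kidneys, and 6.58, 6.57 and 7.01 in No Storage kidneys. SCS lay below No Storage on every array, by -0.63 (SE 0.29, limma adjusted p = 0.335), and NEVKP spanned both.

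Ligands of mucosal and skin surfaces showed no common direction. CCL28, made by mucosal epithelium, measured 6.26, 8.31 and 7.51 in NEVKP kidneys, 6.18, 6.62 and 4.92 in SCS kidneys, and 7.51, 5.75 and 6.85 in No Storage kidneys. Each group spread widely, with an SD of 1.03 in NEVKP, 0.88 in SCS and 0.89 in No Storage, and NEVKP differed from SCS by 1.46 (SE 0.60, limma adjusted p = 0.648), or 0.97 without SCS replicate 3. The differences of CCL27, the skin ligand of CCR10, and CCL25, the gut ligand of CCR9, lay between -0.11 and 0.05 in all comparisons. CCR10 differed by 0.18 for SCS against No Storage with arrays that did not overlap (limma adjusted p = 0.547), and CCR9 by -0.31 for NEVKP against SCS, or -0.18 without NEVKP replicate 1 and -0.48 without SCS replicate 1.

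Of the remaining ligands, CCL22, which attracts regulatory and type 2 helper T cells, was lower in NEVKP than in SCS on every array, by -0.26 (limma adjusted p = 0.746), or -0.11 without SCS replicate 1. CCL20, which attracts cells bearing CCR6, reached 4.95 in SCS replicate 1, and its other arrays lay between 3.53 and 4.35. CCL1 was dim, and CCL14 and CCL16, which bind CCR1, differed from No Storage by at most 0.31 in size. XCL1, made by T and NK cells, measured 4.11, 4.46 and 4.08 in NEVKP kidneys, 4.18, 4.0 and 3.76 in SCS kidneys, and 3.95, 3.68 and 4.06 in No Storage kidneys. NEVKP lay above No Storage on every array, by 0.32 (SE 0.16, limma adjusted p = 0.596), or by 0.20 without NEVKP replicate 2 and 0.21 without No Storage replicate 2. XCR1, its receptor on cross-presenting dendritic cells, measured 6.05, 6.25 and 5.36 in NEVKP kidneys, 5.77, 5.83 and 5.74 in SCS kidneys, and 4.99, 5.85 and 5.81 in No Storage kidneys, which overlapped. A further XCR1 probe set was dim and did not follow it, differing by 0.09 for NEVKP and 0.32 for SCS against No Storage.

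Among the atypical receptors, ACKR1 had the largest differences. ACKR1, the Duffy antigen that carries chemokines across venule walls and sits on red cells, measured 4.94, 6.20 and 5.32 in NEVKP kidneys, 6.16, 5.69 and 5.27 in SCS kidneys, and 4.90, 5.25 and 5.02 in No Storage kidneys. SCS lay above No Storage on every array, with replicate 3 barely so, by 0.65 (SE 0.31, limma adjusted p = 0.353), or 0.42 without SCS replicate 1. ACKR2, which clears inflammatory CC ligands, ranged from 4.81 to 5.74 over all arrays, and its differences from No Storage were -0.15 in NEVKP and -0.09 in SCS. ACKR4, which clears CCL19, CCL21 and CCL25, was dim, with means of 3.54 ± 0.19 in NEVKP, 3.55 ± 0.28 in SCS and 3.54 ± 0.32 in No Storage (SD, n = 3 each).

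**Figure D4:**
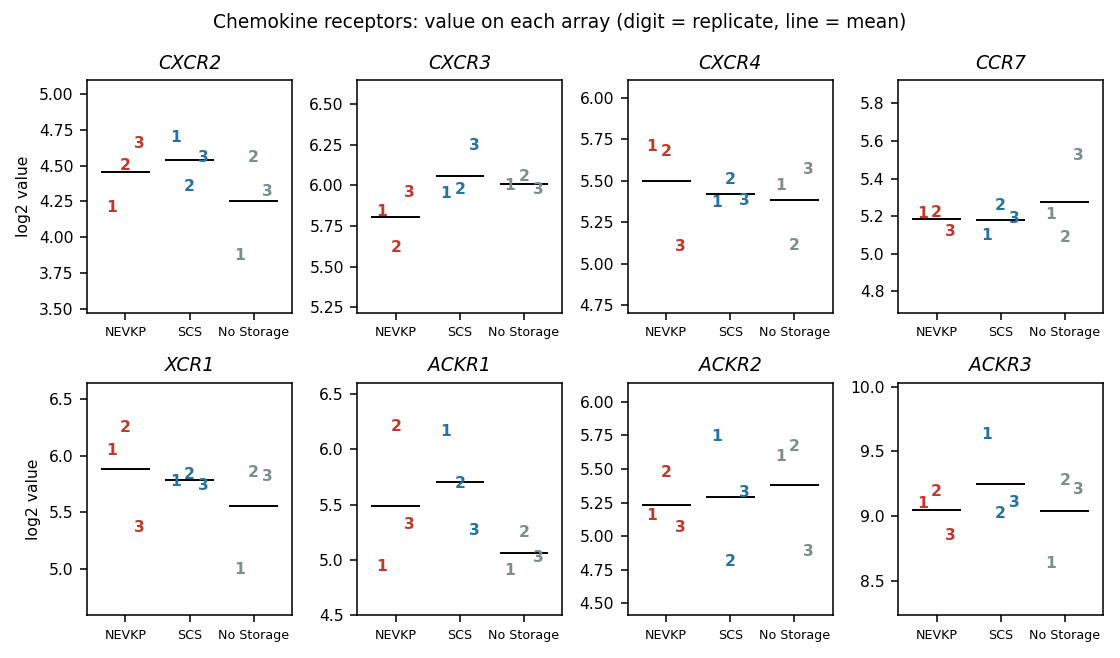
Log2 value of 8 chemokine receptors on each array, with the replicate number as a digit and the group mean as a line, and a separate vertical scale for each gene. ACKR1 lies above all No Storage arrays in every SCS kidney, CXCR3 lies below them in every NEVKP kidney, and the other receptors overlap among groups.

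Counted over all 40 genes, NEVKP against No Storage gave 0 genes past an adjusted p of 0.05 in limma, as it did over all genes (0%). At an unadjusted p under 0.05, 7 of the 40 were higher, beside 5.16% of all genes, and 0 were lower, beside 4.76%. All 7 were ligands, namely CCL2, CCL4, CCL5, CCL8, CXCL8, CXCL10 and CXCL16. The arrays did not overlap for 8 genes that were higher, these 7 and XCL1, beside 8.74% of all genes, and for 2 that were lower, CCL26 and CXCR3, beside 9.31%. The median difference was 0.51 over ligands, 0.01 over receptors and -0.01 over all genes. All 8 CXC ligands had a positive difference with a median of 1.04, although CXCL9 was at -0.08 without NEVKP replicate 3. Of the 18 CC ligands, 12 had a positive and 6 a negative difference, with a median of 0.28. The count of 7 became 11 without NEVKP replicate 1, and ranged from 6 to 11 over the omission of single arrays.

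NEVKP against SCS also gave 0 genes past an adjusted p of 0.05 (0% of all genes). At an unadjusted p under 0.05, 6 of 40 were higher, beside 4.42% of all genes, and 0 were lower, beside 3.29%. These 6 were CXCL9, CXCL10, CXCL12, CCL8, CCL11 and CCL28. The arrays did not overlap for 4 genes that were higher (5.83% of all genes), CXCL9, CXCL10, CCL4 and CCL26, and for 1 that was lower (6.56%), CCL22. The median difference was 0.25 over ligands, -0.08 over receptors and -0.0045 over all genes. Without SCS replicate 3 the count of 6 became 3.

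SCS against No Storage gave 0 of 40 genes past an adjusted p of 0.05, beside 0.0728% of all genes higher and 0.138% lower. At an unadjusted p under 0.05, CCL2, CCL4 and CXCL16 were higher and CCL26 was lower, so 3 and 1 of 40, beside 7.79% and 9.05% of all genes. The arrays did not overlap for 5 genes that were higher (11.7% of all genes) and 3 that were lower (13.3%). The median difference was 0.13 over ligands, 0.08 over receptors and 0.00018 over all genes. The count of 3 became 6 without SCS replicate 3 or NEVKP replicate 2, and the count of 1 became 3 without NEVKP replicate 2 or 3 and 2 without SCS replicate 1. The comparisons with No Storage share its arrays. In the F test among the 3 groups, 0 of 40 passed an adjusted p of 0.05 (0.00809% of all genes) and 9 had an unadjusted p under 0.05 (13.9%).

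**Figure D5:**
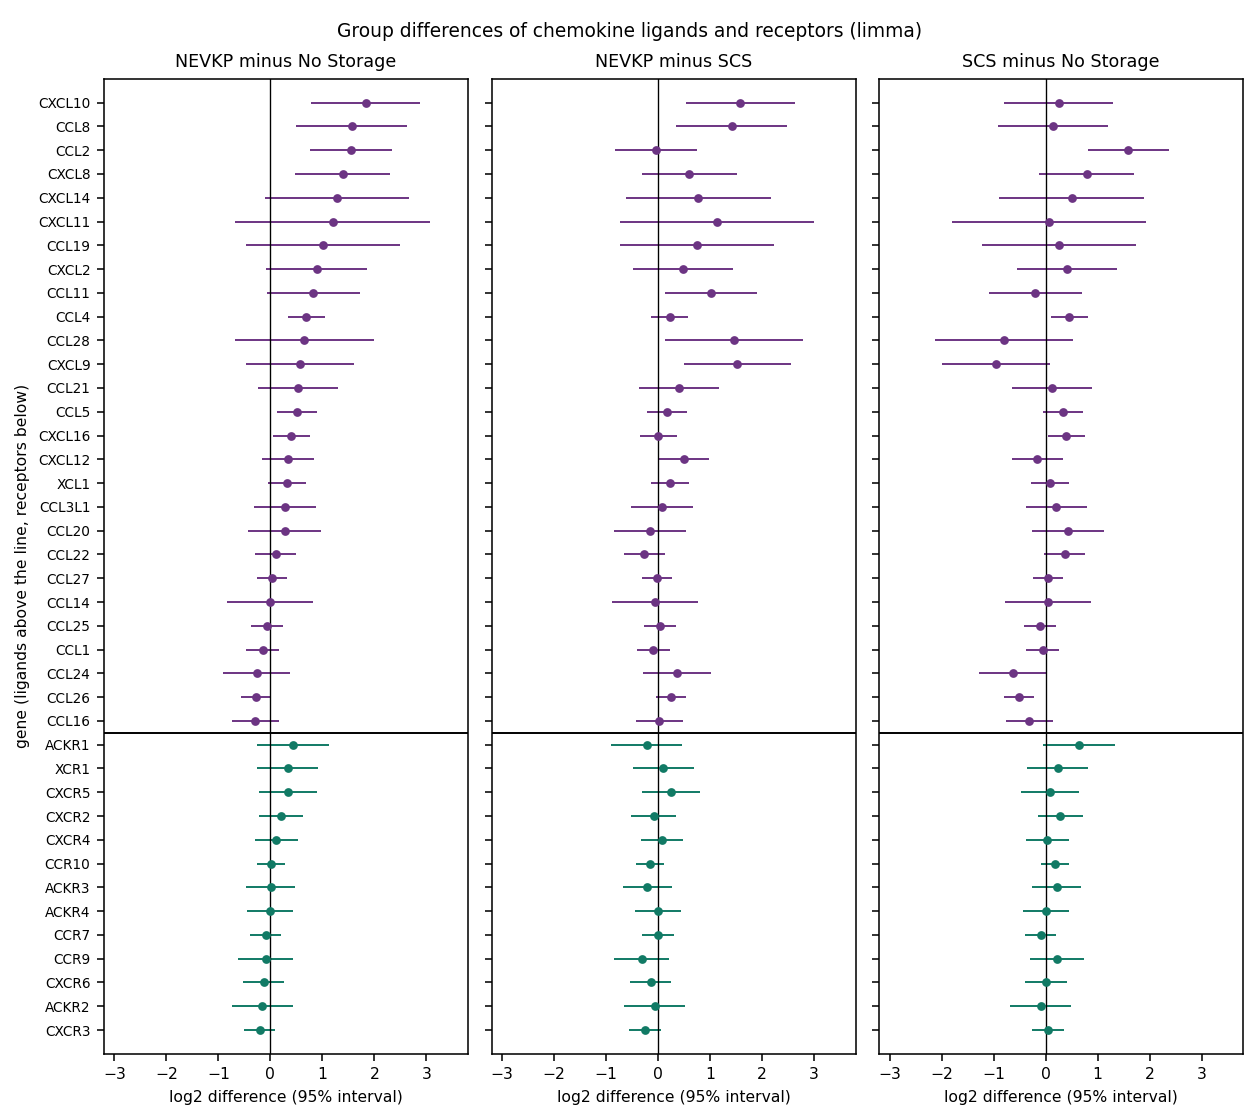
Log2 difference with its 95% interval (limma, before adjustment for many genes) for 27 ligands above the line and 13 receptors below it, in NEVKP minus No Storage, NEVKP minus SCS and SCS minus No Storage. The widest ligand intervals belong to CXCL11, from -0.67 to 3.06 in NEVKP minus No Storage, and the receptor points stay between -0.31 and 0.65 in all 3 panels.

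Other genes of the pathway were taken from lists, and 0 members of any list passed an adjusted p of 0.05 in limma in any comparison. Of 14 measured genes of chemokine receptor signalling, 7 were higher at an unadjusted p under 0.05 in NEVKP than in No Storage, beside 5.16% of all genes, such as PRKCB, a kinase activated by diacylglycerol (0.81), and VAV1, an exchange factor for Rac (0.67). In SCS against No Storage 3 were higher at that threshold, beside 7.79% of all genes, led by PRKCB (0.97) and the arrestin gene ARRB2 (0.55). Of 15 transcription factors and regulators upstream of chemokine genes, 7 in NEVKP and 7 in SCS were higher than in No Storage at an unadjusted p under 0.05, beside 5.16% and 7.79% of all genes. IRF1, induced by interferon, differed by 0.81 in NEVKP, and JUN by 0.75 in SCS. Of 11 adhesion genes, 4 in NEVKP and 3 in SCS were higher than in No Storage at an unadjusted p under 0.05, beside 5.16% and 7.79% of all genes. VCAM1 differed by 1.18 in NEVKP and 0.98 in SCS, and ICAM1 by 0.93 in NEVKP and 0.77 in SCS. Both encode endothelial partners of leukocyte integrins. Of 4 measured chemokine genes outside the symbol rule, MIF differed by 0.31 in SCS against No Storage (limma adjusted p = 0.275). AMCF-II, a neutrophil attractant of the pig, differed by 0.41 (SE 0.29) in NEVKP against No Storage (limma adjusted p = 0.708), with overlapping arrays. Unlike CXCL8 and CXCL2, AMCF-II had its lowest NEVKP value in replicate 2, at 4.10, beside 4.87 and 4.29 in replicates 1 and 3.

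List scores, the mean over a list relative to No Storage, moved with the same arrays in part. In NEVKP replicates 1, 2 and 3 the adhesion score was 0.29, 1.14 and 0.16, and the score of upstream factors 0.21, 0.79 and 0.41, so that replicate 2, which led for CCL2, CXCL8 and CXCL2, was the highest. Monocyte and macrophage genes, 11 of 15 measured and 0 dim, scored 0.56, 0.93 and 0.52 in NEVKP replicates 1, 2 and 3. They scored 0.10 to 0.71 in SCS, against -0.04 to 0.05 in No Storage. At an unadjusted p under 0.05, 8 of 11 in NEVKP and 4 in SCS were higher than in No Storage, beside 5.16% and 7.79% of all genes. Neutrophil genes, 6 of 12 measured and 3 dim, scored 0.16, 0.28 and 0.31 in NEVKP replicates 1, 2 and 3. They scored 0.37 to 0.83 in SCS, against -0.29 to 0.25 in No Storage. T and NK cell genes, 16 of 18 measured and 3 dim, scored 0.15, 0.14 and 0.11 in NEVKP replicates 1, 2 and 3. They scored -0.13 to 0.03 in SCS, against -0.15 to 0.09 in No Storage. Replicate 3, which led for CXCL9, CXCL10 and CXCL11, thus had the lowest T and NK cell score of the NEVKP arrays.

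B and plasma cell genes, 7 of 10 measured and 1 dim, scored 0.05 to 0.39 in NEVKP and -0.16 to 0.33 in SCS, against -0.23 to 0.12 in No Storage. Dendritic cell genes, 3 of 8 measured and 2 dim, scored -0.08 to 0.26 in NEVKP and 0.05 to 0.25 in SCS, against -0.11 to 0.08 in No Storage. Fibroblast and pericyte genes, 7 of 8 measured, scored 0.42 to 0.86 in NEVKP and 0.58 to 0.82 in SCS, against -0.09 to 0.10 in No Storage. Endothelial genes, 6 of 10 measured, scored -0.52 to 0.05 in NEVKP and -0.39 to 0.07 in SCS, against -0.08 to 0.11 in No Storage. Tubule genes scored -0.28 to -0.16 in NEVKP and -1.01 to -0.35 in SCS, against -0.02 to 0.04 in No Storage. The part of these cell types in the chemokine values was not tested.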

How the data were processed

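Total RNA from 9 kidney biopsies was labelled by an Affymetrix protocol and hybridised, per the labels' protocols. The authors made the deposited log2 values with RMA, per the submitters' processing notes, which also name limma 3.34.14. No source used here states the array design or any filter. Symbols came from the array's annotation: 13323 of 19124 probe sets had 1 symbol, 357 several and 5444 none. RefSeq gave the same symbol for the gene identifier of 38 of the 40 genes, with CXCL2 and CXCR3 unmatched. Linear models with the group as the only factor were fitted to all 9 arrays with limma 3.58.1 in R 4.3.3 and adjusted by Benjamini-Hochberg over all probe sets, with 6 residual and 4.12 prior degrees of freedom. The steps were tested on simulated data. Each array was a different animal, and the number of arrays limits the precision.

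The genes and lists were chosen with earlier results of these data known. Values on every array were given for the 6 genes of smallest unadjusted p per comparison and for fixed ligand and receptor pairs, and up to 4 genes per list could be named. The alternatives used array weights, a robust prior with a trend, a block for the replicate number, arrays centred on their medians, quantile normalization, probe sets without the dimmest 25%, probe sets averaged per gene, only the groups under comparison, or 8 of the 9 arrays.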

Additional observations from a re-analysis of the deposited data

Results flagged for a closer look

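A probe set whose annotation gives both CCR1 and XCR1 was not assigned to a gene and took no part in the comparisons. Its log2 values were 5.58, 6.10 and 5.19 in NEVKP kidneys, 6.64, 4.95 and 5.22 in SCS kidneys, and 4.59, 4.90 and 4.69 in No Storage kidneys, so every preserved kidney lay above every No Storage kidney. SCS replicate 2 did so narrowly, at 4.95 beside 4.90, and SCS replicate 1 stood far above the other SCS arrays. Of all genes, 8.74% lay above No Storage without overlap in NEVKP and 11.7% in SCS. The difference from No Storage was 0.90 in NEVKP (limma adjusted p = 0.536) and 0.88 in SCS (limma adjusted p = 0.313).

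MIF, a cytokine outside the symbol rule that can bind CXCR2 and CXCR4, lay above No Storage on every SCS array, by 0.31 (limma adjusted p = 0.275). Groups of 3 were not tested for outlying samples. No gene of the 40 had all NEVKP arrays above and all SCS arrays below the No Storage mean, or the reverse. Group means did lie on opposite sides for some genes, such as CXCL9, at 0.58 for NEVKP and -0.95 for SCS. The NEVKP sign of CXCL9 rested on replicate 3, without which the difference was -0.08.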

How the results depend on the processing

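The number of the 40 genes past an adjusted p of 0.05 stayed at 0 in all alternatives for NEVKP against No Storage, NEVKP against SCS and the F test. For SCS against No Storage it was 1 (CCL2) with the compared groups alone and 0 to 1 over the omission of single arrays. Of the 18 differences from the rule of smallest p, all kept their sign in all alternatives, and of the 102 other values 50 changed sign at least once, 3 of them larger than their SE (CXCL9 for NEVKP against No Storage, CXCL2 and CXCR5 for NEVKP against SCS). At an unadjusted p under 0.05, the SCS against No Storage count of 3 higher genes was 5 with array weights, 6 with the compared groups alone and 2 to 6 without single arrays. Its count of 1 lower gene was 2 with the replicate block, array weights, centred arrays or quantile normalization, 3 with the compared groups alone and 1 to 3 without single arrays. For NEVKP against No Storage, the count of 7 higher genes was 6 to 11 without single arrays, and that of 0 lower genes was 1 with array weights or centred arrays and 0 to 1 without single arrays. For NEVKP against SCS, the counts of 6 and 0 were 3 to 8 and 0 to 1 without single arrays. The ligand mean for NEVKP against No Storage ran from 0.47 to 0.75 and the receptor mean from -0.03 to 0.11.

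The labels give the groups the same replicate numbers, but no source says that they pair the animals. Deviations of same-numbered arrays correlated at -0.14 to 0.13, and 1 of 9 arrays correlated best with its own number. With the replicate block 0 of the 40 genes passed in any comparison.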
